A study of Mus musculus with 12 samples.

Results

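The microRNA probe sets described here are the 264 probe sets, of 28944 experimental probe sets on the array, whose annotated symbols all run from Mir1 to Mir499, with any suffix, or begin with Mirlet7. They carry 251 distinct symbols, 9 of them are let-7 probe sets, and 9 more carry the name of a microRNA host transcript such as Mir17hg. The values are log2 signals from Affymetrix Mouse Gene 1.0 ST Arrays, hybridised with total RNA of the whole main olfactory epithelium (MOE), the nasal tissue that holds the odour-sensing neurons. All mice were 6 months old. In the 6 H2be-KO samples the coding sequence of H2be, a histone H2B variant gene of olfactory neurons, was replaced in every cell by a Gap43-mCherry reporter, and founders had been crossed to C57Bl/6. The 6 WT samples carried the intact gene. Each sample pooled tissue of 2 mice, the methods describe an equal mixture of males and females, and no sample carries a sex label. The Y-linked genes, given with the arrays, were low in replicates 1 to 3 of both genotypes and high in replicates 4 to 6. By these genes, replicates 1 to 3 read as female pools, and replicates 4 to 6 held male tissue. The comparison asks whether loss of H2be altered these transcripts.

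MicroRNAs are short RNAs that silence messenger RNAs. A long primary transcript folds into a hairpin, which Drosha and Dgcr8 cut out in the nucleus and Dicer1 trims in the cytoplasm to the mature strand that an Argonaute protein carries. Bases 2 to 8 of the mature strand, the seed, pair with the target, so that microRNAs with the same seed are grouped as a family. In olfactory epithelium the miR-200 family is known for its part in the differentiation of neurons from progenitors. The array was hybridised with RNA labelled by a whole-transcript method, and the probes of these probe sets are directed at hairpin genes. The RNA was isolated with Trizol and purified with an RNeasy Miniprep Kit, and how much hairpin or mature strand that kept was not measured. A signal may therefore come from a primary transcript, a hairpin or a mature strand, and these cannot be told apart here. In whole tissue, fewer cells of a type and less RNA per cell cannot be told apart either.

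The mature strands of the probe sets on which the comparison turns are shown first, with the seed in capitals, 5′ to 3′, as RefSeq gives them for GRCm38.p6. The miR-15/16 family is shown because its members share the seed AGCAGCA and come from separate chromosomes. Mir16-1 and Mir16-2 give the same mature strand from hairpins on chromosome 14 (chr14:61631880-61631972, minus strand) and chromosome 3 (chr3:69009902-69009996, plus strand).
miR-16-5p: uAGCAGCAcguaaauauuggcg
miR-15b-5p: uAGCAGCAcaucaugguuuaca
miR-195a-5p: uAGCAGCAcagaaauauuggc
miR-497a-5p: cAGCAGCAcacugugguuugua

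The let-7 strands of the cluster on chromosome 13 are shown because its 3 probe sets lie next to each other and share the seed GAGGUAG. The Mirlet7f-1 hairpin lies at chr13:48537829-48537917 on the minus strand.
let-7a-5p: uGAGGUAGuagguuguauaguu
let-7d-5p: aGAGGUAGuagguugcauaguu
let-7f-5p: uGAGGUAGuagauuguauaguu

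The remaining probe sets that passed the test are shown because no seed is shared among them. Their hairpins lie at chr11:35616816-35616925 (Mir218-2, plus strand), chr11:87756864-87756927 (Mir142, plus strand), chr11:79711969-79712034 (Mir193a, plus strand) and chr12:108836973-108837068 (Mir345, plus strand).
miR-218-5p: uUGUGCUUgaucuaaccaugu
miR-142a-3p: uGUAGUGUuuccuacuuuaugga
miR-193a-3p: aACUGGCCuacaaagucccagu
miR-345-5p: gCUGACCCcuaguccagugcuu

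The miR-200 family is shown because it held the highest signals, and its strands carry the seeds AACACUG and AAUACUG. Mir200a and Mir200b lie together on chromosome 4, and Mir141 and Mir200c on chromosome 6.
miR-200a-3p: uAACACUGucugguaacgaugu
miR-141-3p: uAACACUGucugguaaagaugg
miR-200b-3p: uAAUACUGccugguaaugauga
miR-200c-3p: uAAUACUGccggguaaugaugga

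Most of the microRNA probe sets gave a low signal. Their median was 6.47 on the log2 scale, with quartiles of 5.62 and 7.62 and a range from 3.79 to 10.55, against a median of 7.87 and quartiles of 6.78 and 9.06 for all experimental probe sets. A mean above log2 5, the level the study's methods used for multiple testing, was reached by 237 probe sets, or 89.8%, against 97.3% of all. Of these, 199 were above 5 on each of the 12 arrays. The other 27 were not tested, and 12 of them were above 5 on no array. Probe sets answer differently to equal amounts of RNA, so these values place each probe set against background and do not rank the microRNAs.

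A log2 signal of 5 was a lenient background. For 25 genes of organs absent from the dissection, such as sperm, lens, pancreas and liver genes, the signal ran from 5.03 to 8.84 with a median of 7.03, the highest being Tnp2, a sperm chromatin gene. Of the microRNA probe sets, 106 were above that median and 17 were above Tnp2. The 10 highest were Mir200b at 10.55, Mir200a at 10.44, Mir194-2 at 10.33, Mir484 at 10.30, Mir346 at 10.21, Mir328 at 10.20, Mir92b at 9.81, Mir326 at 9.74, Mir341 at 9.71 and Mir139 at 9.59. Mir194-2 belongs to a family best known from gut and liver, and the second copy of the family, Mir194-1, read 7.16.

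**Figure D1:**
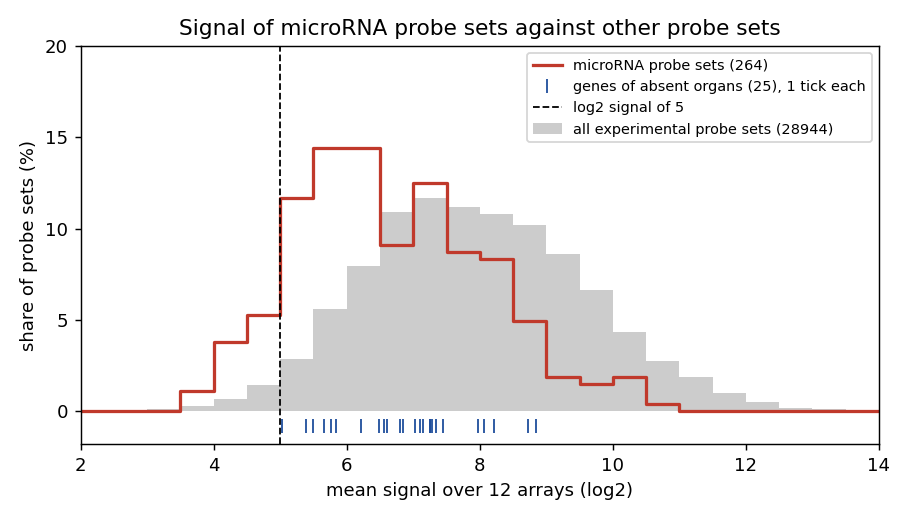
Share of probe sets (vertical axis, percent) by mean log2 signal over the 12 arrays (horizontal axis), for the 264 microRNA probe sets (line) and all 28944 experimental probe sets (bars). Ticks mark the 25 genes of absent organs and the dashed line a signal of 5. The line peaks left of the bars, and most of it lies within the range of the ticks, from 5.03 to 8.84.

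Signal followed the base composition of the hairpin. Across the 216 probe sets whose hairpin was matched in RefSeq, the share of G and C bases ran from 28.4% to 69.2% and correlated with the signal at Pearson's r of 0.65 and Spearman's rho of 0.67. This is a correlation across probe sets on the same arrays, which are not independent replicates, and is given as a description. The 55 hairpins with the lowest share of G and C had a median signal of 5.46, and the 55 with the highest had 7.93. Mir200b, with 51.4% G and C, and Mirlet7f-1, with 39.3%, were bright for their composition. The part of base composition in the signal of any single probe set was not tested.

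**Figure D2:**
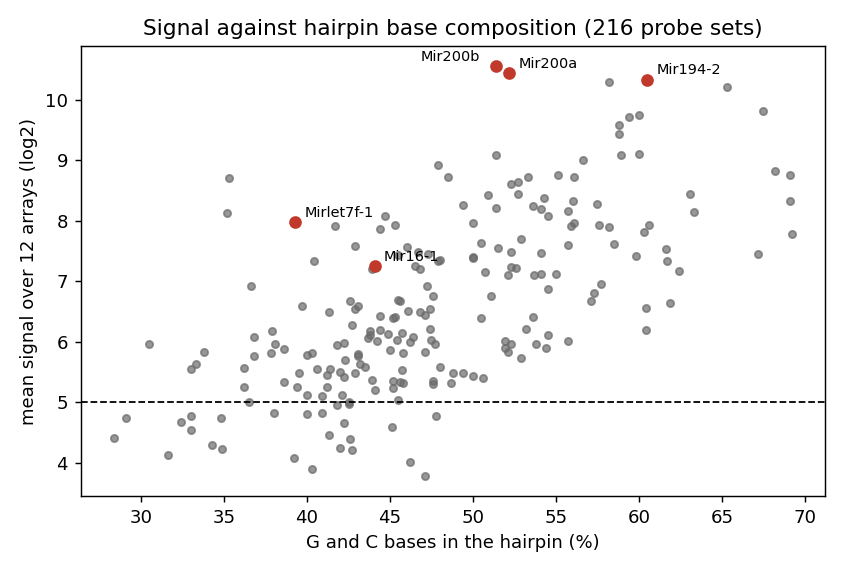
Mean log2 signal over 12 arrays (vertical axis) against the percentage of G and C bases in the RefSeq hairpin (horizontal axis), 1 point for each of 216 microRNA probe sets. The dashed line marks a signal of 5, and 5 probe sets are named. Signal climbs with the share of G and C, with Pearson's r of 0.65.

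Before the genotypes were compared, the arrays were examined. Arrays correlated with each other at 0.951 to 0.985, and their medians lay between 7.84 and 7.90. The mean of the microRNA probe sets less that of all probe sets was lowest in WT replicate 6, at -1.244, and highest in WT replicate 2, at -0.983, with the 6 H2be-KO arrays between them. The difference between GC-rich and GC-poor microRNA probe sets ran from 1.67 to 2.11 in H2be-KO and from 1.74 to 2.15 in WT. H2be-KO replicates 1 and 6 carried the enamel gene Amelx at 11.87 and 11.66, against at most 6.03 elsewhere. Markers of mature olfactory neurons were high in both groups, their list mean lying between 11.73 and 12.04 in H2be-KO and between 11.83 and 11.93 in WT. The Y-linked Eif2s3y read 0.00 to 3.71 in replicates 1 to 3 of both genotypes and 10.54 to 10.72 in replicates 4 to 6. Uty read 1.40 to 3.99 and 9.30 to 9.81. Each genotype thus held 3 arrays with little Y-linked signal and 3 with much, and the main fit had no term for this split. The H2be probe set, named H2bc21 in the annotation, read 11.65 ± 0.12 in H2be-KO and 11.89 ± 0.17 in WT (SD, n = 6 each). The files do not say whether its probes lie within the replaced coding sequence, so it does not check the labels.

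**Figure D3:**
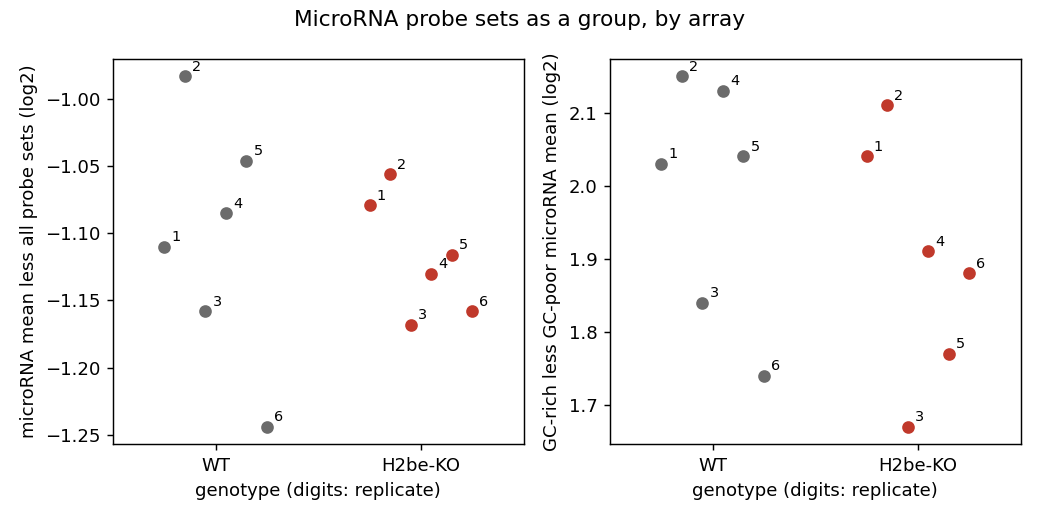
Left, mean log2 signal of the microRNA probe sets less the mean of all probe sets, by array. Right, mean log2 signal of GC-rich less GC-poor microRNA probe sets, by array. Points are arrays, digits are replicate numbers and the 2 genotypes are set side by side. The genotypes overlap in both, and WT replicate 6 is lowest at left, at -1.244.

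Few of the microRNA probe sets differed between H2be-KO and WT. At an unadjusted limma p under 0.05, the threshold of the study, 6 of 237 were higher in H2be-KO (2.53%, against 3.78% of all 28151 probe sets tested) and 1 was lower (0.422%, against 1.77%). In either direction 5.55% of all probe sets passed. By the exact permutation test 6 were higher and 1 was lower, with Mir15a among them and Mir497 not, against 3.98% and 2.03% of all probe sets. With all arrays the microRNA shares were below the background in both directions. After Benjamini-Hochberg adjustment over all 28151 probe sets limma called 0 microRNA probe sets and 0 of any kind, and the smallest adjusted p of a microRNA probe set was 0.753. The probe sets that passed were Mir16-1, Mir218-2, Mir142, Mir193a, Mirlet7f-1 and Mir497, which were higher, and Mir345, which was lower.

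These counts depended on single arrays. Without WT replicate 6 the counts were 13 higher and 27 lower, while the count over all probe sets grew from 1563 to 3817. The microRNA share was then 16.9% against 13.6% of all in either direction, 5.49% against 8.05% for higher and 11.4% against 5.51% for lower. The lower share was also above that of all without H2be-KO replicate 2 (2.53% against 2.24%) and without both Amelx-high arrays (2.11% against 1.59%). Without H2be-KO replicate 5, 1 was higher, and without H2be-KO replicate 3, 0 were lower. With the mean of the Y-linked genes as a covariate 5 were higher and 2 lower.

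The differences as a whole were centred near 0. Of the 237 probe sets tested, 123 had a positive difference (51.9%, against 56.2% of all). Some hold identical values, and of the 228 distinct measurements 114 had a positive difference. Over the 237, the median difference, H2be-KO less WT, was 0.01 against 0.02 for all. The median standard error was 0.137, larger than the 0.112 of all probe sets. The 95% interval of the difference lay within 0.5 on either side of 0 for 180 probe sets and within 1 for 233. The differences leaned with base composition: across the 191 tested probe sets with a matched hairpin, the share of G and C correlated with the difference at Pearson's r of -0.23 and Spearman's rho of -0.26, a description across probe sets on the same arrays. The median difference was 0.04 in the 37 tested GC-poor probe sets, of which 23 were positive, and -0.07 in the 55 GC-rich ones, of which 20 were positive. The part of base composition in the differences was not tested. The largest difference of a tested probe set, named here after its values were seen, was that of Mir20a, at 0.73 with a standard error of 0.52 and a limma p of 0.182 (exact permutation p = 0.299), and its WT arrays had an SD of 1.52.

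In Mir16-1, the microRNA probe set with the smallest limma p, the genotypes did not overlap. The share of all probe sets without overlap was not counted, so how unusual this separation is on the array cannot be told. miR-16 is known to restrain the cell cycle. In H2be-KO its lowest, median and highest signals were 7.21, 7.46 and 7.61, and in WT they were 6.77, 7.12 and 7.16. All 6 H2be-KO arrays were above all 6 WT arrays, though the lowest of the one and the highest of the other lay close together. The difference was 0.37 ± 0.10 (SE, 95% interval 0.15 to 0.58), or 1.29-fold. Its limma p was 0.0027 and its exact permutation p 0.00216, the smallest that 924 choices of 6 of 12 arrays can give. It passed the unadjusted threshold in each of the 12 fits that left out an array, with differences from 0.31 to 0.41. Within replicates 1 to 3 the difference was 0.34 and within replicates 4 to 6 it was 0.40. Its adjusted p over all probe sets was 0.753.

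The neighbours of Mir16-1 were examined because they share its transcript or seed, and they were named after their values were seen. Mir15a lies beside Mir16-1 in the noncoding gene Dleu2. Its lowest, median and highest signals were 9.30, 9.40 and 9.60 in H2be-KO and 9.22, 9.31 and 9.36 in WT, so that the groups overlapped. Its difference was 0.13 ± 0.07, with a limma p of 0.0952 and an exact permutation p of 0.0173. Dleu2 itself differed by 0.23 ± 0.23 (limma p = 0.332, exact permutation p = 0.405).

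On chromosome 3, Mir16-2 and Mir15b lie in an intron of Smc4, a condensin subunit. Mir16-2 differed by 0.25 ± 0.15 (limma p = 0.129, exact permutation p = 0.169) and Mir15b by 0.14 ± 0.19 (limma p = 0.459, exact permutation p = 0.522). The host Smc4 differed by 0.21 ± 0.15 (limma p = 0.177, exact permutation p = 0.223). None of these passed. The probe set of Mir16-2 reads a hairpin that shares its mature strand with Mir16-1. A mature strand, if kept in the RNA, could therefore add to both signals.

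The family's other cluster, Mir497 and Mir195a on chromosome 11, did not move together. Mir497 ran through 6.58, 6.82 and 7.10 (lowest, median, highest) in H2be-KO and through 5.81, 6.52 and 6.99 in WT. It was higher by 0.35 ± 0.16 with a limma p of 0.0488 and an exact permutation p of 0.0541. The call was lost without H2be-KO replicate 1, 2 or 5 or WT replicate 1, 2, 3 or 4, and the smallest of these differences, without WT replicate 1, was 0.22. Mir195a differed by -0.08 ± 0.12 (limma p = 0.503, exact permutation p = 0.537). Of the 5 probe sets with a matched hairpin and the seed AGCAGCA, 4 had a positive difference, 2 passed, and the median difference was 0.25. Of all probe sets tested, 56.2% had a positive difference and 3.78% passed as higher. The family was taken up because it held the called Mir16-1 and Mir497, so that its counts partly restate those calls.

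**Figure D4:**
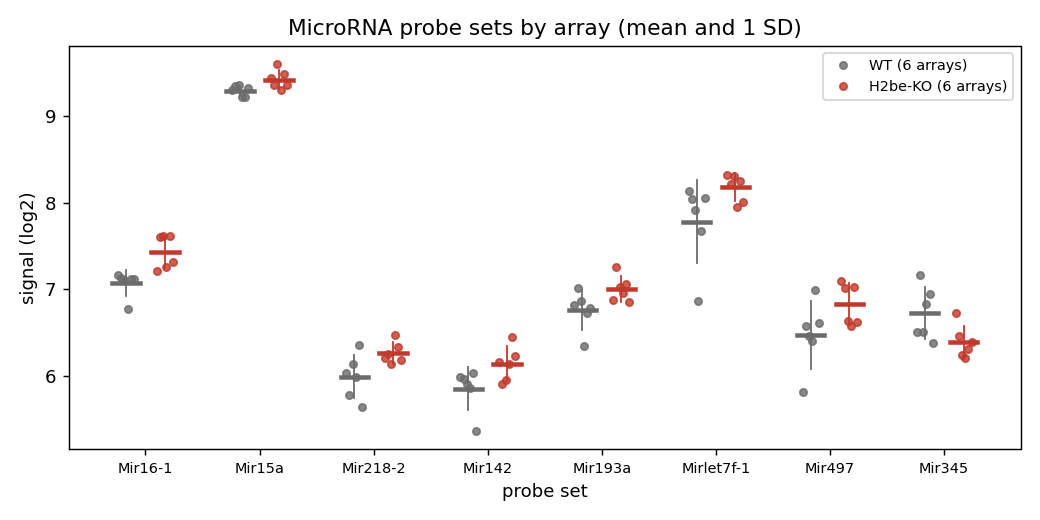
Log2 signal (vertical axis) of the 7 microRNA probe sets with an unadjusted limma p under 0.05 and of Mir15a, by array, for WT and H2be-KO. Points are arrays, horizontal bars the mean and vertical lines 1 SD, with 6 arrays in each group. The groups separate for Mir16-1, with H2be-KO from 7.21 to 7.61 and WT from 6.77 to 7.16, and overlap for the other 7.

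Mirlet7f-1 was the called member of the let-7 family, whose mature strands promote differentiation. Its lowest, median and highest signals were 7.95, 8.23 and 8.32 in H2be-KO and 6.86, 7.97 and 8.14 in WT. WT replicate 4, at 6.86, stood apart from the other WT arrays, of which the nearest read 7.67. The difference was 0.40 ± 0.18 (limma p = 0.0429, exact permutation p = 0.0346) with all arrays and 0.21 without WT replicate 4, when the call was lost. It was also lost without H2be-KO replicate 1, 2, 3 or 5 or WT replicate 5, with differences from 0.37 to 0.39.

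The other members of the chromosome 13 cluster depended on the same array. Mirlet7d differed by 0.23 ± 0.11 (limma p = 0.0627, exact permutation p = 0.0909). Mirlet7a-1, named after its values were seen, differed by 0.17 ± 0.18 (limma p = 0.379, exact permutation p = 0.530), and by -0.01 without WT replicate 4. Over the 11 probe sets of the family, including Mir98 and Mir202, 8 had a positive difference, 1 passed, and the median was 0.11. Of all probe sets tested, 56.2% had a positive difference and 5.55% passed in either direction. Mirlet7b and Mirlet7c-2, left out because their probe sets also carry another symbol, differed by -0.05 ± 0.16 and -0.16 ± 0.13. Mirlet7i and Mir98 differed by -0.17 ± 0.16 and 0.02 ± 0.10. Lin28a and Lin28b, which block let-7 maturation, are given with the processing genes.

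**Figure D5:**
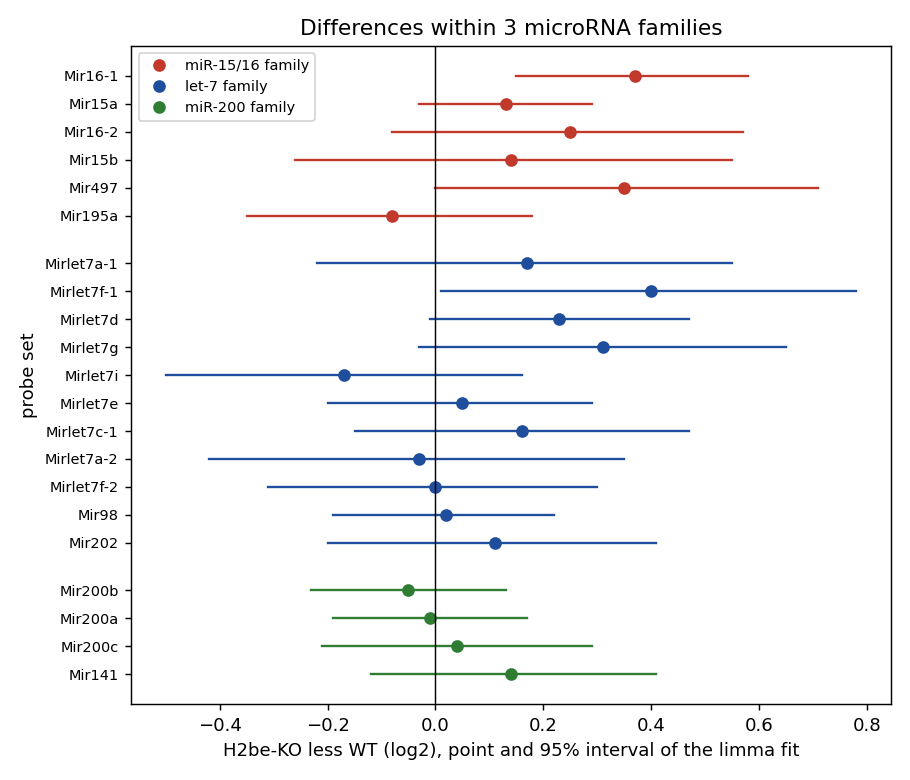
Difference in log2 signal, H2be-KO less WT (horizontal axis), with its 95% interval from the limma fit, for 21 probe sets of the miR-15/16, let-7 and miR-200 families. Points right of 0 are higher in H2be-KO. The interval of Mir16-1, 0.15 to 0.58, lies clear of 0, and all 4 miR-200 intervals include 0.

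The remaining called probe sets were Mir218-2, Mir142, Mir193a and Mir345. Of the 7 called, 5 had a mean signal below the absent-organ median of 7.03, and Mir16-1 and Mirlet7f-1 were above it. Within replicates 1 to 3 and within replicates 4 to 6, the differences kept their sign in all 7, but for Mir142 they were 0.06 and 0.52 and for Mir497 0.63 and 0.08. Mir218-2, a microRNA of motor and other neurons, ran through 6.13, 6.22 and 6.47 in H2be-KO and through 5.64, 6.00 and 6.36 in WT. It was higher by 0.27 ± 0.11 (limma p = 0.0294, exact permutation p = 0.0455). The call was lost without H2be-KO replicate 4 or 5 or WT replicate 2 or 6, each left out alone, with differences from 0.20 to 0.26. Its host Slit3, an axon guidance gene, differed by -0.11 ± 0.13, and the second copy Mir218-1 by 0.14 with a limma p of 0.396 (Slit3 limma p = 0.391, exact permutation p = 0.420).

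Mir142 marks blood-derived cells. Its lowest, median and highest signals were 5.91, 6.15 and 6.45 in H2be-KO and 5.36, 5.93 and 6.03 in WT, with WT replicate 6 at 5.36. The difference was 0.29 ± 0.12 (limma p = 0.0298, exact permutation p = 0.0281), and the call was lost without WT replicate 6, at 0.20, and without H2be-KO replicate 5 or 6, at 0.23 and 0.28. Of the leukocyte markers, 0 of the 6 tested passed, against 5.55% of all probe sets. Their level, as a list mean, ran from 7.50 to 8.49 in H2be-KO and from 7.31 to 8.52 in WT. The B cell marker Cd79a was below the filter at 4.88. With the leukocyte mean as a covariate, chosen after seeing the data, the difference of Mir142 was 0.28, and it still passed. That fit also raised the count over all probe sets from 1563 to 2110. The part of blood-derived cells in the difference was not tested.

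Mir193a was higher by 0.25 ± 0.11 (limma p = 0.0387, exact permutation p = 0.0325), with 6.85, 6.99 and 7.26 in H2be-KO and 6.34, 6.80 and 7.01 in WT. Mir345 was the only probe set that passed in the other direction. It read 6.21, 6.35 and 6.72 in H2be-KO and 6.38, 6.67 and 7.16 in WT, a difference of -0.33 ± 0.13 (limma p = 0.0254, exact permutation p = 0.0498). In both the groups overlapped. Mir193a lost its call without H2be-KO replicate 2, 3 or 5 or WT replicate 4 or 5, with differences from 0.17 to 0.25. Mir345 lost its call without H2be-KO replicate 3 or 4 or WT replicate 2 or 5, with differences from -0.30 to -0.25.

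Below the threshold, the probe sets nearest to it on the lower side were Mir362, Mir34c, Mir376b, Mir9-3, Mir205, Mir23a and Mir9-1, with differences from -0.50 to -0.18. On the higher side the nearest were Mirlet7d and a probe set of Mir99ahg, the host transcript of Mir99a, which differed by 0.36 ± 0.17 (limma p = 0.0551, exact permutation p = 0.0996) and whose symbol has 4 probe sets with differences from -0.09 to 0.36. Mir205, a microRNA of basal epithelial cells, differed by -0.50 ± 0.27 (limma p = 0.0772, exact permutation p = 0.106), and Mir203, also of stratified epithelia, by -0.16 ± 0.18 (limma p = 0.386, exact permutation p = 0.446). Beside them, 0 of 5 basal and progenitor markers passed, against 5.55% of all probe sets. The list mean of these markers ran from 8.38 to 8.72 in H2be-KO and from 8.50 to 8.72 in WT. Krt14, Krt5, Trp63 and Neurog1 differed by -0.25, -0.13, -0.06 and -0.06, and Neurod1 by 0.32. The part of cell number in these differences was not tested. Mir9-1 and Mir9-3, copies of a neural progenitor microRNA with the same mature strand, differed by -0.28 ± 0.16 (limma p = 0.0945, exact permutation p = 0.167) and -0.27 ± 0.14 (limma p = 0.0725, exact permutation p = 0.104).

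The families best known from sensory and epithelial tissue showed no call with all arrays, where 5.55% of all probe sets passed in either direction. At that share lists this short hold few calls or none, so an absence of change cannot be read from these counts. In the miR-200 family 0 of 4 passed, with differences of -0.05 ± 0.09 for Mir200b, -0.01 ± 0.08 for Mir200a, 0.04 ± 0.12 for Mir200c and 0.14 ± 0.12 for Mir141. The 95% interval for Mir200b ran from -0.23 to 0.13. In the miR-183 cluster, shared by the sensory organs, Mir183 and Mir96 differed by less than 0.01 and Mir182 by 0.20 ± 0.12 (limma p = 0.105, exact permutation p = 0.132). Of the 5 members of the miR-34 and miR-449 family, which acts in multiciliated cells, 0 passed, and Mir34c differed by -0.29 ± 0.14 (limma p = 0.0529, exact permutation p = 0.0887). Mir34b, Mir449a and Mir449c differed by -0.03 ± 0.14, 0.06 ± 0.12 and -0.06 ± 0.09. The largest difference of the family, 0.43, was that of Mir34a and lay in the opposite direction to Mir34c. Mir34a had a mean signal of 5.21, did not pass and is named here after its values were seen.

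Among 20 neuronal microRNA probe sets 1 passed, Mir218-2, and the median difference was -0.02. Of all probe sets 5.55% passed in either direction, so a call or none in a list of this size is near that share. Mir128-2, the brightest of them, differed by 0.01 ± 0.10. The copies of miR-124, a microRNA of neurons throughout the brain, read 5.13 to 6.17, in the lower part of the array's range. Mir132, Mir138-1 and Mir219a-1 differed by -0.19 ± 0.15, -0.04 ± 0.12 and -0.09 ± 0.15. Of 13 tested members of the miR-17-92 cluster and its paralogs, which promote proliferation, 0 passed, with a median difference of 0.03. Its brightest, Mir92b, differed by -0.13 ± 0.09, Mir25 by 0.03 ± 0.12, Mir93 by -0.11 ± 0.11 and Mir92-2 by -0.09 ± 0.12.

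The imprinted microRNAs of the Dlk1-Dio3 region on chromosome 12, processed from long maternal transcripts, had mostly negative differences, H2be-KO less WT, and no call. Of 28 probe sets 20 were tested, 5 had a positive difference, 0 passed, and the median was -0.11 against 0.02 for all probe sets. Over all probe sets tested, 56.2% had a positive difference and 5.55% passed in either direction. The long transcripts of the same region differed by 0.02 ± 0.17 for Meg3 (limma p = 0.899, exact permutation p = 0.916) and by 0.02 ± 0.17 for Rian (limma p = 0.891, exact permutation p = 0.907). The brightest members, Mir341, Mir494, Mir370 and Mir134, differed by 0.13 ± 0.11, 0.12 ± 0.10, -0.10 ± 0.11 and 0.01 ± 0.14. The members lie together and their values are not independent.

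Among lists of other cell types and organs, 1 of 12 tested blood and immune probe sets passed (Mir142), against 5.55% of all probe sets. None passed among 6 muscle, 8 vascular and stromal and 13 tested microRNAs of other organs by limma. The brightest blood and immune members, Mir181d, Mir150, Mir181c and Mir146b, differed by -0.12 ± 0.11, -0.09 ± 0.12, 0.15 ± 0.11 and -0.07 ± 0.11. For the vascular and stromal Mir199b, Mir199a-1, Mir145a and Mir10b the differences were -0.03 ± 0.10, -0.05 ± 0.11, 0.01 ± 0.11 and 0.03 ± 0.09. For the muscle microRNAs Mir1a-1, Mir499, Mir133a-2 and Mir208a they were -0.14 ± 0.18, -0.02 ± 0.17, 0.10 ± 0.11 and -0.16 ± 0.30. Mir194-2, Mir194-1, Mir122, a liver microRNA, and Mir470 differed by -0.03 ± 0.09, 0.06 ± 0.18, 0.10 ± 0.10 and -0.02 ± 0.14.

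Mir1a-2, a muscle microRNA, read 3.89 on average, differed by 0.85 and had an exact permutation p of 0.00649, and Mir379, of the imprinted region, read 4.82, differed by 0.36 and had an exact permutation p of 0.00866. Both were below the filter, and Mir1a-2 was above 5 on no array. In the Sfmbt2 repeat cluster the 9 probe sets of the Mir467a group held identical values, so that they are 1 measurement, at a difference of 0.01, and Mir297b differed by 0.04 ± 0.15.

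Of 28 probe sets of 25 genes that make and use microRNAs, 1 passed as higher and 1 as lower (7.14%, against 5.55% of all), and the median difference was 0.00. Drosha differed by 0.00 ± 0.12, Dgcr8 by 0.13 ± 0.13, the export receptor Xpo5 by 0.00 ± 0.10 and Dicer1 by -0.08 ± 0.08. Prkra, a partner of Dicer1, was higher by 0.33 ± 0.15 (limma p = 0.048, exact permutation p = 0.0844). Lin28a, the let-7 inhibitor, was lower by 0.41 ± 0.19 on the log2 scale, at a signal of 5.93 (limma p = 0.0425, exact permutation p = 0.0974), and Lin28b differed by -0.01 ± 0.13. Ago4 differed by 0.20 ± 0.10 (limma p = 0.0673, exact permutation p = 0.0693). Tut4, which adds uridines to hairpins, differed by 0.17 ± 0.12 (limma p = 0.155, exact permutation p = 0.162). By the exact test 0 of the 28 passed, against 6.01% of all probe sets.

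Host genes and the microRNAs within them were compared over 59 pairs, in which some hosts appear repeatedly. A few hosts passed without their microRNAs. Of all probe sets 5.55% passed in either direction, and whether hosts passed more often than that was not tested. Mcm7, a replication helicase subunit, was higher by 0.25 ± 0.10 (limma p = 0.0181, exact permutation p = 0.0152), while Mir25, Mir93 and Mir106b in its intron differed by 0.03, -0.11 and -0.07. Mest was higher by 0.31 ± 0.13 (limma p = 0.0278, exact permutation p = 0.0411) beside Mir335 at -0.02. Ppargc1b was lower by 0.21 ± 0.08 on the log2 scale (limma p = 0.0178, exact permutation p = 0.0152) beside Mir378a at 0.02. Zranb2 was higher by 0.29 ± 0.12 (limma p = 0.0265, exact permutation p = 0.0303), and Mir186 within it differed by 0.25 with a limma p of 0.238. Among these pairs, Mir218-2 was the only microRNA that passed, and its host Slit3 did not.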

How the data were processed

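The authors hybridised total RNA to Mouse Gene 1.0 ST Arrays, screened the intensity files for outliers with arrayQualityMetrics and summarised them in Affymetrix Expression Console with IterPLIER and sketch-quantile normalization. The deposited values are log2 signals, and the version of that software is not given in the sources used here. Gene symbols came from the array's annotation: of 28944 experimental probe sets 21789 carried 1 symbol, 1621 several and 5534 none, and 6612 control probe sets were left out. The submitters' processing notes name limma. Here, limma 3.58.1 in R 4.3.3 (lmFit, eBayes, genotype as the only term) was fitted to the 28151 probe sets with a mean above log2 5 over 12 arrays, with Benjamini-Hochberg adjustment over all of them. Exact permutation tests used all 924 choices of 6 of 12 arrays. All tests were two-sided. The 12 samples are pools of 2 mice each. Precision is set by the number of arrays, not by depth.

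Hairpins and mature strands came from RefSeq (GRCm38.p6), with 216 probe sets matched, and clusters were hairpins within 10 kb on a strand. The fit was tested on simulated data. Members, lists and the naming rule were chosen with earlier results of these data known. Named were the 10 highest signals, the 8 higher and 8 lower probe sets with the smallest p, up to 4 of the highest signal per list and the 4 processing genes with the smallest p. The alternatives were other filters, a floor at log2 5, quantile normalization, median centring, a replicate block, covariates, array weights, moderated trend, exact tests, control probe sets kept and each array left out. Leaving out the Amelx-high arrays and the leukocyte covariate were chosen after seeing the data.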

Additional observations from a re-analysis of the deposited data

Results flagged for a closer look

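In these probe sets a single array stood apart from the other 5 of its genotype, its gap to the nearest exceeding Dixon's 95% limit. This held for 14 of 138 groups of 6 arrays, where chance gives about 1 in 20, or 6.9. H2be-KO replicate 6 was the lowest of its group for Mir194-1, at 6.43 against 7.09 in the nearest array. WT replicate 6 was the lowest of its group for Mir205, at 4.64 against 5.70 in the nearest array, Mir142, at 5.36 against 5.86 in the nearest array, Mir484, at 10.04 against 10.39 in the nearest array and Mir328, at 9.97 against 10.27 in the nearest array. WT replicate 4 was the lowest of its group for Mirlet7f-1, at 6.86 against 7.67 in the nearest array and Mir16-1, at 6.77 against 7.11 in the nearest array. WT replicate 3 was the lowest of its group for Mir208a, at 4.79 against 5.53 in the nearest array. WT replicate 1 was the lowest of its group for Mir122, at 6.35 against 6.66 in the nearest array. H2be-KO replicate 2 was the highest of its group for Mir146b, at 7.41 against 7.06 in the nearest array and Mir326, at 9.87 against 9.73 in the nearest array. H2be-KO replicate 5 was the highest of its group for Mir467a-9 and its copies, at 6.89 against 6.39 in the nearest array. WT replicate 4 was the highest of its group for Mir200b, at 10.80 against 10.58 in the nearest array. WT replicate 6 was the highest of its group for Mir182, at 7.70 against 7.20 in the nearest array. Of the called probe sets, Mir16-1, Mirlet7f-1 and Mir142 are among these, each with a low WT array. Without that array Mir16-1 kept its call, and Mirlet7f-1 and Mir142 lost theirs. Of the flagged probe sets not called with all arrays, some passed when an array was left out. Mir205 did so in 2 of the 12 fits, with differences from -0.715 to -0.388 and limma p from 0.00573 to 0.171. Mir182 did so in 1, with differences from 0.134 to 0.292 and limma p from 0.00967 to 0.252. Mir484 and Mir328 each did so in 1. No explanation was tested.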

How the results depend on the processing

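At an unadjusted p under 0.05 the main counts were 6 higher and 1 lower microRNA probe sets and 2 processing genes. The lower count became 2 with Y-linked genes as a covariate, 3 with median centring, 6 with quantile normalization, 5 without both Amelx-high arrays and 11 with array weights, and 2 with the leukocyte covariate. The higher count became 11 with array weights and 10 with the leukocyte covariate. With array weights the shares were 4.64% for lower, against 4.99% of all, and 4.64% for higher, against 9.57%. The lower share was 2.53% against 3.19% with quantile normalization and 1.27% against 2.48% with median centring. With the leukocyte covariate the higher share was 4.22% against 5.3%. Over the 25 settings the higher share was above that of all in 0 and the lower share in 3. The processing count became 4 with array weights, 1 with no filter, a filter at log2 6, quantile normalization, median centring or control probe sets kept, and 0 with the exact permutation test or the leukocyte covariate. With each array left out in turn the higher count ran from 1 (without H2be-KO replicate 5) to 13 (without WT replicate 6), the lower from 0 (without H2be-KO replicate 3) to 27 (without WT replicate 6), and the processing count from 0 to 3. Both microRNA counts were within 1.5 times the main count with no filter, a filter at log2 6, the floor, the moderated trend, the exact permutation test and control probe sets kept. The median difference stayed within 1 SD of the arrays' spread (0.0977) but not on 1 side of 0, running from -0.033 to 0.023 with an array left out. Above background, 237 became 60 above the median of all probe sets and 17 above the highest absent-organ gene. Mir16-1 passed in all 25 settings, and each of the 6 other called probe sets lost the call in at least 4. The cause of these shifts was not tested. Quantile normalization and centring moved the median difference of all probe sets by -0.023 and -0.014.

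The labels do not say that replicate numbers pair samples, although replicates 1 to 3 of both genotypes were low in the Y-linked genes and replicates 4 to 6 high. Deviations of same-numbered arrays correlated at 0.09, 0.592, 0.393, 0.319, 0.025 and 0.377, not over 0.1 for every number, so that the numbers were not used as pairs. All were positive, and whether same-numbered arrays were more alike than others was not tested. This rule therefore does not settle whether the numbers mark a shared block. The fit with the number as a replicate block called 13 higher, 7 lower and 1 processing gene, beside 2990 of all probe sets, against 1563 in the main fit. In either direction that was 8.44% of the microRNA probe sets against 10.6% of all.

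Of 1815 values of 73 single genes under the alternatives, 99 changed sign, all of them uncalled at both settings, 73 lost a call, 63 gained one and 1580 did neither. The sign changed under quantile normalization for Mir134 at -0.00555, Mir25 at -0.00276, Mir128-2 at -0.0257. It changed under median centring for Mir134 at -0.000237, Mir145a at -0.00505, Mir467a-9 at -0.00343, Mir128-2 at -0.000904. With array weights it changed for Mir194-1 at -0.0939, Mir134 at -0.087, Mir145a at -0.0704, Mir467a-9 at -0.0286, Mir200a at 0.0205, Mir25 at -0.031, Mir96 at 0.00515, Mir183 at 0.0992. Without both Amelx-high arrays it changed for Mir134 at -0.0638, Mir208a at 0.0358, Mir199b at 0.00554, Mir25 at -0.0259, Mir34b at 0.0272, Mir128-2 at -0.0775, Mir98 at -0.0329. With the leukocyte covariate it changed for Mir145a at -0.00837, Mir467a-9 at -0.017, Mir96 at 0.0231, Mir183 at 0.0152. With each array left out in turn the differences of those that changed sign ran, for Mir134 from -0.0718 to 0.0719, Mir208a from -0.309 to 0.132, Mir145a from -0.0452 to 0.0688, Mir25 from -0.0452 to 0.0969, Mir34b from -0.155 to 0.0301, Mir128-2 from -0.0267 to 0.0576, Mir98 from -0.0354 to 0.0516, Mir297b from -0.0153 to 0.137, Mir470 from -0.0932 to 0.0765, Mir199b from -0.0839 to 0.0121, Mir1a-1 from -0.247 to 0.0129, Mir96 from -0.0606 to 0.0475, Mir183 from -0.0772 to 0.0992, Mir139 from -0.0871 to 0.0103, Mir199a-1 from -0.109 to 0.00911, Mir10b from -0.00254 to 0.0692, Mir499 from -0.135 to 0.105, Mir200a from -0.0468 to 0.0382, Mir467a-9 from -0.108 to 0.0607, Mir200c from -0.0325 to 0.115, Mir138-1 from -0.126 to 0.0172, Mir449a from -0.0149 to 0.14, Mirlet7a-1 from -0.00893 to 0.247, Mir194-2 from -0.0581 to 0.0276, Mir194-1 from -0.0477 to 0.209.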
